A study of Rattus norvegicus with 13 samples.

Results

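The 32 genes described here mark the leptomeninges, the thin pia and arachnoid membranes around the brain, and the fibroblasts that live in them and along large vessels. They were chosen by name, with earlier results of these data known. Each was read from the probe set (a group of short array probes combined to 1 value) whose annotation gives that single symbol. Of the 32, 30 had a probe set, each exactly 1, among 14506 genes measured. Foxc1 and Foxc2, forkhead transcription factors of meningeal development, had none and are not analysed here. Signals came from the brain without the cerebellum of male rats of the inbred Fischer F344 strain, aged 15 months. The mothers ate a diet high in fructose (6 arrays) or a control diet (7 arrays) starting on day 1 of gestation and through lactation. Offspring of both groups were weaned onto chow on day 20. All values are log2 signals, so a difference of 1 is a doubling.

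As background, leptomeningeal fibroblasts build a matrix of collagens and small leucine-rich proteoglycans, secreted proteins that bind collagen fibrils. Arachnoid cells also form a barrier between blood and cerebrospinal fluid, with transporters that clear organic ions and amino acids. The same membranes secrete retinoic acid and insulin-like growth factor 2, and prostaglandin D2 synthase from them is a main protein of cerebrospinal fluid.

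The arrays had close medians (7.99 to 8.07 over the 15633 probe sets with a gene). Control replicates 1 and 2 had the narrowest distributions, with interquartile ranges of 2.19 and 2.15 against 2.26 to 2.50 in the other 11 arrays. Neuron markers averaged 11.42 to 11.57 in the fructose group and 11.40 to 11.53 in the control group. Cerebellum markers averaged 7.29 to 7.50 and 7.31 to 7.46 in the same order of groups. The table has no detection p-values, so absence of a dim transcript could not be read from its signal. The labels do not say that each array is a separate animal or litter, and p-values here reflect only how far these samples spread, which may be technical.

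The members varied widely between arrays, and mostly together, within both diet groups. The mean of the 30 members per array (the module mean) was 7.49, 7.49, 7.69, 7.74, 8.01 and 8.27 in the fructose group. In the control group it ran from 7.41 to 8.31 with a median of 7.53. The lowest array was control replicate 5 and the highest control replicate 8, with fructose replicate 4 next to it. The widest gap between neighbouring arrays, 0.25, set these 2 arrays above the other 11, whose neighbours lay at most 0.16 apart. Of the 30 members, 23 had their highest signal in control replicate 8 (14 members) or fructose replicate 4 (9 members), and 5 had it in fructose replicate 8. Control replicate 5 was lowest for 12 members and control replicate 2 for 7. These counts follow in part from the module mean, which is built from the same members. The share of all probe sets highest or lowest in these arrays was not taken. The median range of a member over the 13 arrays was 1.01, against 0.40 over all probe sets. The median residual SD of the members, within diet groups, was 0.31, against 0.11 over all probe sets. By that SD 21 of 30 members lay in the top 10% of all probe sets, and 3 (Pcolce, Col3a1 and Foxd1) lay below the median. The members were chosen with earlier results of these data known, so their wide spread is a description and no independent finding. In bulk tissue, fewer cells of a type and less RNA per cell cannot be told apart.

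**Figure D1:**
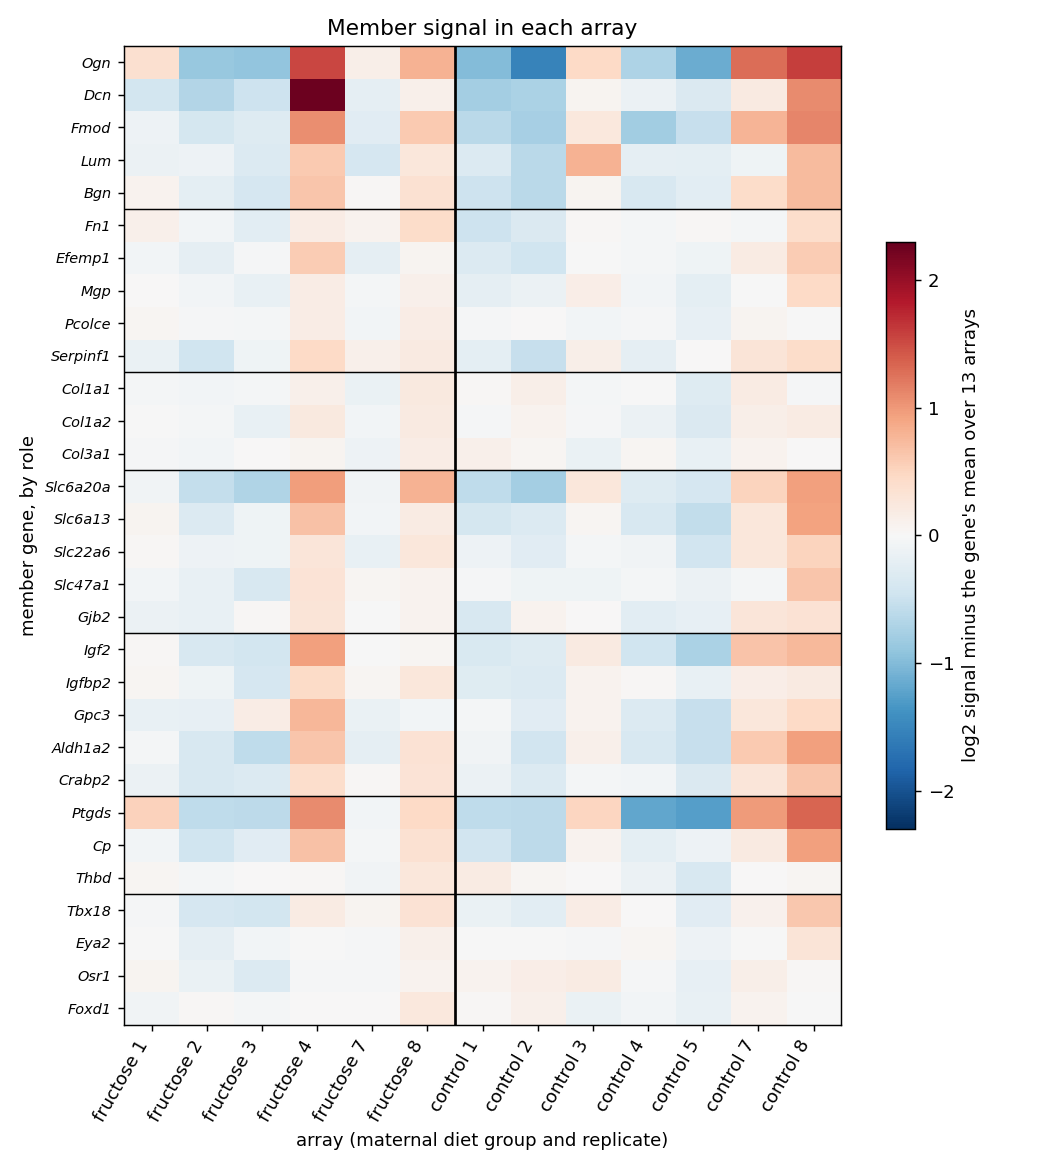
Log2 signal of each member minus its own mean over 13 arrays (colour), with members in rows by role and arrays in columns, fructose left of the line and control right of it. Most rows are high in fructose replicate 4 and control replicate 8 and low in control replicates 2 and 5, while the collagen rows and Foxd1 stay pale.

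The members' promoters are shown because the members moved together. They come from RefSeq (GRCr8), where 19 of the 30 measured members had an entry. The 250 bases before the annotated start are given 5′ to 3′ for the 3 members with an entry and the widest range. Capitals mark matches on either strand. The motifs searched were the TATA box, spelled TATAAA. The CCAAT box was searched as CCAAT. The GC box was searched as GGGCGG. The core of forkhead sites was searched as TGTTTAC. Ogn lies at chr17:15258996-15259245 (- strand), Ptgds at chr3:28682979-28683228 (- strand) and Fmod at chr13:48045317-48045566 (+ strand).
Ogn: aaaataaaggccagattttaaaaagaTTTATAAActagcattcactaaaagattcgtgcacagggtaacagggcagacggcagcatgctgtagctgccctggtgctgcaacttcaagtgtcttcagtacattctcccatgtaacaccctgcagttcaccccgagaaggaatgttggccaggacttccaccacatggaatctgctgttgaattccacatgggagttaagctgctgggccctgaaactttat
Ptgds: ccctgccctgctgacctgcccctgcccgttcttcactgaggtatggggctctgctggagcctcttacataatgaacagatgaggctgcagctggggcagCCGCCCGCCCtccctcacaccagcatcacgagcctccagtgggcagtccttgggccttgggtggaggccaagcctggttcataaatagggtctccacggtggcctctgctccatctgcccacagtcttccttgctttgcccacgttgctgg
Fmod: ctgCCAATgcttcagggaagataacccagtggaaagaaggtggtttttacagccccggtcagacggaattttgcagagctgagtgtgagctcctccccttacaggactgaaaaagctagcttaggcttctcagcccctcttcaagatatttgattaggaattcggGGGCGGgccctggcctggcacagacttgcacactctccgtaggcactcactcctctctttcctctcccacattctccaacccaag
These windows share no motif across all 3 genes: Ogn matched TATAAA, with its letters on both strands overlapping, Ptgds matched GGGCGG, and Fmod matched CCAAT and GGGCGG. Over the 19 members TATAAA was in 4 (21.1%, against 12.9% of all 33469 promoter windows) and CCAAT in 7 (36.8%, against 34.02%). GGGCGG was in 9 (47.4%, against 30.5%) and TGTTTAC in 0, against 3.21% of all windows. A match is a string of letters and not a shown binding site.

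The small leucine-rich proteoglycans varied most. Ogn, which encodes osteoglycin, ran from 7.90 to 10.36 with a median of 9.07 in the fructose group, and from 7.28 to 10.41 with a median of 8.11 in the control group. Its highest and lowest arrays differed by 3.13, an 8.77-fold range, and both groups spanned most of it. Dcn (decorin) ran from 8.06 to 10.99 with a median of 8.43 in the fructose group, and from 7.96 to 9.82 with a median of 8.61 in the control group. Its top value stood alone: fructose replicate 4 was at 10.99 and the next fructose array at 8.86. Fmod (fibromodulin) ran from 6.71 to 8.18 with a median of 6.94 in the fructose group, and from 6.32 to 8.24 with a median of 6.59 in the control group. Bgn (biglycan) ran from 8.09 to 9.12 in the fructose group and from 7.87 to 9.21 in the control group. Lum (lumican) was highest in control replicate 3 at 6.31, an array with a module mean of 7.85. It ran from 5.12 to 6.12 in the fructose group and from 4.89 to 6.31 in the control group. The groups overlapped for each of the 5 genes.

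Secreted enzymes and carriers came next. Ptgds, the prostaglandin D2 synthase, ran from 10.66 to 12.35 with a median of 11.46 in the fructose group, and from 9.998 to 12.60 with a median of 10.68 in the control group. That is a 6.06-fold range over all arrays, and the top arrays were again control replicate 8 and fructose replicate 4. Cp, the copper carrier ceruloplasmin, ran from 7.05 to 8.19 in the fructose group and from 6.91 to 8.45 in the control group. Thbd (thrombomodulin), an anticoagulant receptor of endothelial cells, ran from 6.64 to 6.97 and from 6.35 to 6.91 in the same order.

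Among growth factor and retinoid genes, Igf2 ran from 7.52 to 8.89 with a median of 7.95 in the fructose group, and from 7.21 to 8.69 with a median of 7.65 in the control group. Aldh1a2, which makes retinoic acid, ran from 6.82 to 8.03 with a median of 7.28 in the fructose group, and from 6.87 to 8.35 with a median of 7.31 in the control group. Crabp2, which carries retinoic acid in the cell, ran from 5.92 to 6.71 and from 5.96 to 6.94 in that order. Igfbp2, a binding protein of insulin-like growth factors, had a range of 0.83 over all arrays, and Gpc3, the proteoglycan glypican 3, one of 1.30.

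The transporters split by size of spread. Slc6a20a, an imino acid transporter, ran from 8.27 to 9.91 in the fructose group and from 8.17 to 9.90 in the control group. Slc6a13, a transporter of GABA and taurine, ran from 7.85 to 8.84 in the fructose group and from 7.61 to 9.09 in the control group. Slc22a6, the organic anion transporter OAT1, had a range of 0.95 over all arrays. Slc47a1, an extruder of organic cations, lay within 6.34 to 6.45 in 6 of the control arrays and at 7.11 in control replicate 8. Gjb2, a gap junction protein, had a range of 0.70.

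The other matrix genes and the fibrillar collagens varied less. Fn1 (fibronectin) ran from 8.81 to 9.46 in the fructose group and from 8.57 to 9.45 in the control group. Efemp1 (fibulin 3) ran from 8.14 to 8.94 in the fructose group and from 7.90 to 8.94 in the control group, so its highest arrays were level. Serpinf1 (pigment epithelium-derived factor) ran from 7.11 to 8.02 in the fructose group and from 7.04 to 7.99 in the control group. Ranges over all arrays were 1.04 for Efemp1, 0.98 for Serpinf1, 0.89 for Fn1, 0.68 for Mgp (matrix Gla protein) and 0.35 for Pcolce, an enhancer of procollagen processing. Col1a1 and Col1a2, the chains of type I collagen, ran from 8.20 to 8.59 and from 8.26 to 8.66 in the fructose group. In the control group they ran from 8.08 to 8.56 and from 8.11 to 8.64. Col3a1, type III collagen, had a range of 0.35. Of the transcription regulators, Tbx18, a T-box factor of mural and leptomeningeal cells, ran from 6.80 to 7.56 in the fructose group and from 6.97 to 7.85 in the control group. Eya2, a transcription cofactor, Osr1, a zinc finger regulator of mesenchyme, and Foxd1, a forkhead factor, had ranges of 0.50, 0.51 and 0.42 over all arrays.

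**Figure D2:**
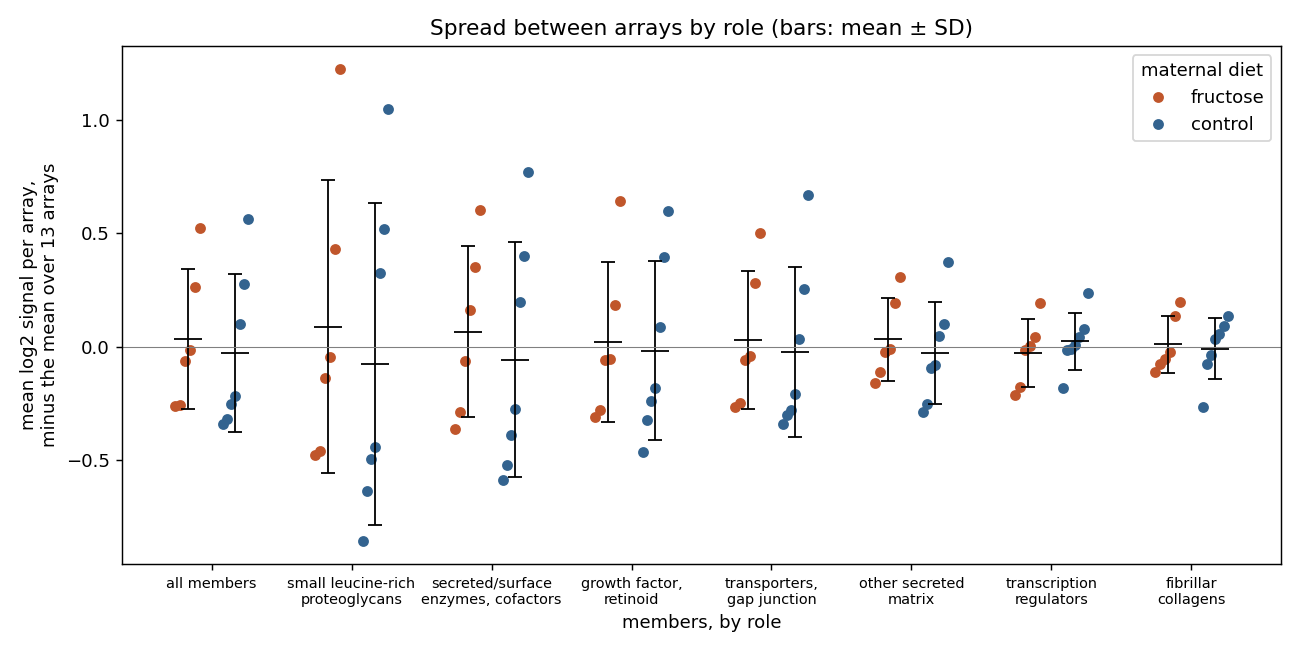
Mean log2 signal of the members of each role per array, minus the mean over 13 arrays (points: arrays; black bars: mean ± SD, 6 fructose and 7 control arrays). The proteoglycans span 2.08 log2 units and the collagens 0.47, and the groups overlap in every role.

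How far each member moved with the rest was described by its slope on the mean of the other members, at equal diet group, in log2 units per log2 unit. The 95% interval of the slope lay above 0 for 25 of 30 members, and 11 had a slope above 1. Of the probe sets of no member, 5.91% had a positive slope on the module mean at an unadjusted limma p under 0.05. The members were chosen with earlier results of these data known, so the count of 25 is no independent finding. Ogn had the steepest, 3.58 ± 0.26 (SE), then Ptgds at 2.64 ± 0.30, Dcn at 2.31 ± 0.40, Fmod at 2.16 ± 0.16 and Slc6a20a at 1.97 ± 0.15. The residual SD of Aldh1a2 with the other members in the model was 23.9% of that with diet alone, the lowest share of any member. It was 26.6% for Fmod, 27.6% for Ogn and 57.1% for Dcn. The 5 members whose interval held 0 were Col1a1 (0.19 ± 0.11), Osr1 (0.18 ± 0.11), Thbd (0.16 ± 0.12), Col3a1 (0.09 ± 0.10) and Foxd1 (0.07 ± 0.10). Col1a2 had a slope of 0.40 ± 0.10, and its difference from Col1a1 was not tested. By role, the mean of the proteoglycans had a slope of 2.49 ± 0.22 on the mean of the other members, that of the secreted enzymes and cofactors 1.39 ± 0.12, that of the growth factor and retinoid genes 1.14 ± 0.07 and that of the transporters 1.03 ± 0.05. The other matrix genes had 0.55 ± 0.06, the regulators 0.30 ± 0.07 and the fibrillar collagens 0.21 ± 0.09. These slopes share the same 13 arrays and are given without p-values.

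**Figure D3:**
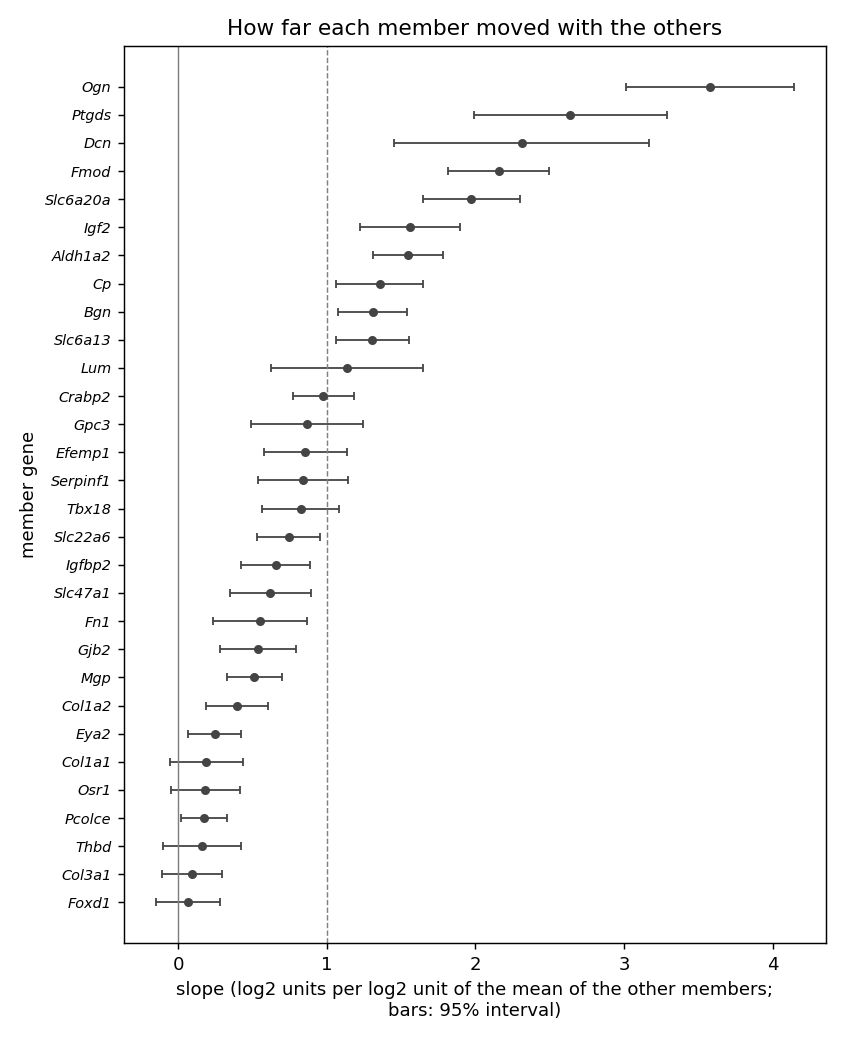
Slope of each member on the mean of the other members at equal diet (point) with its 95% interval (bar), in log2 units per log2 unit, over 13 arrays. The dashed line marks 1. Ogn lies at 3.58, and 5 members have intervals that hold 0.

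Fructose replicate 4 and control replicate 8 had nearly the same module mean (8.27 and 8.31), and were set side by side after their values were seen. Of 30 members, 29 differed by less than 0.5 between these arrays. The exception was Dcn, at 10.99 in fructose replicate 4 and 9.82 in control replicate 8, a difference of 1.17. The next largest was Tbx18, at 7.42 and 7.85 in that order. Ogn was at 10.36 and 10.41 and Slc6a20a at 9.91 and 9.90. The count of 29 follows in part from the choice of arrays with nearly equal module means. Col3a1, Pcolce and Foxd1 could not have differed by 0.5, since their ranges over all arrays were 0.35, 0.35 and 0.42. The share of all probe sets within 0.5 was not taken.

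The comparison of diets asks whether maternal fructose left a difference in these genes in old offspring. No difference in any member passed the test. In the limma fit 0 of 30 members passed an adjusted p of 0.05, and 0 of 30 had an unadjusted p under 0.05, where over all 15633 probe sets 0% passed and 2.23% had an unadjusted p under 0.05. The groups overlapped for all 30 members, while 0.0384% of all probe sets had groups that did not. The module mean was 7.78 ± 0.31 (SD, n = 6) in the fructose group and 7.72 ± 0.35 (SD, n = 7) in the control group, a difference of 0.06. It was -0.04 without fructose replicate 4, -0.04 without control replicates 1 and 2, and 0.16 without control replicate 8. Mean signals in the fructose group were above those in the control group for 23 members and below them for 7, where 54.1% of all probe sets were higher, with a median difference of 0.05, against 0.01 over all probe sets. Without fructose replicate 4 it was 11 members that were higher, without control replicates 1 and 2 it was 10, and with array weights 14.

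The intervals were wide for the genes with most spread. Ogn was at 8.996 ± 0.96 (SD, n = 6) in the fructose group and 8.66 ± 1.25 (SD, n = 7) in the control group, a difference of 0.33 with a 95% interval from -0.82 to 1.48. Ptgds differed by 0.26 (interval -0.66 to 1.17), Dcn by 0.19 (-0.70 to 1.08) and Fmod by 0.18 (-0.54 to 0.91). Among the narrow intervals were those of Pcolce, 0.08 (-0.04 to 0.19), Col3a1, 0.01 (-0.12 to 0.14), and Col1a1, 0.01 (-0.15 to 0.17). Those of Foxd1, 0.05 (-0.09 to 0.18), and Eya2, -0.05 (-0.19 to 0.08), were narrower than that of Col1a1. The most negative difference was that of Osr1, at 7.03 ± 0.15 (SD, n = 6) in the fructose group and 7.15 ± 0.13 (SD, n = 7) in the control group. Its difference was -0.12 (interval -0.27 to 0.04). By role, the proteoglycans had a mean difference of 0.17 (4 of 5 higher) and the regulators one of -0.05 (3 of 4 lower). The collagens had a mean difference of 0.02, with 3 of 3 higher. The sign held in every alternative fit for 8 of the 30 members, Fn1, Pcolce, Ptgds, Slc6a13, Thbd, Foxd1, Osr1 and Eya2. For Thbd, Osr1 and Eya2 this leaves out the fit without the 30% dimmest probe sets, which kept 23 members.

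Adding the module mean to the fit narrowed the intervals of the members that moved together. By construction the 30 adjusted differences then average 0, so their count of signs (15 higher, 15 lower, beside 54.5% higher over all probe sets) is no result. Again 0 of 30 members and 0% of 15633 probe sets passed, and 1 member had an unadjusted p under 0.05, against 2.4% of all probe sets. That member was Aldh1a2, with a difference of -0.16 ± 0.06 (SE; interval -0.30 to -0.02; limma, smallest adjusted p of any probe set 0.99997). Its difference was -0.17 at an equal mean of the other members, and lay between -0.21 and -0.09 in the alternative fits on the same scale. Tbx18 (-0.13, interval -0.29 to 0.03) and Osr1 (-0.13, interval -0.27 to 0.02) were also on the lower side in each alternative that gave them a value. Crabp2, the other retinoid gene, was at -0.08 (interval -0.20 to 0.05). On the higher side, Ogn was at 0.13 (interval -0.15 to 0.42), Fn1 at 0.11 (-0.08 to 0.30), Ptgds at 0.11 (-0.24 to 0.45) and Bgn at 0.07 (-0.07 to 0.21). The interval of Ogn was from -0.82 to 1.48 before the adjustment, that of Slc6a20a from -0.56 to 0.78 before it and from -0.19 to 0.17 after it.

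**Figure D4:**
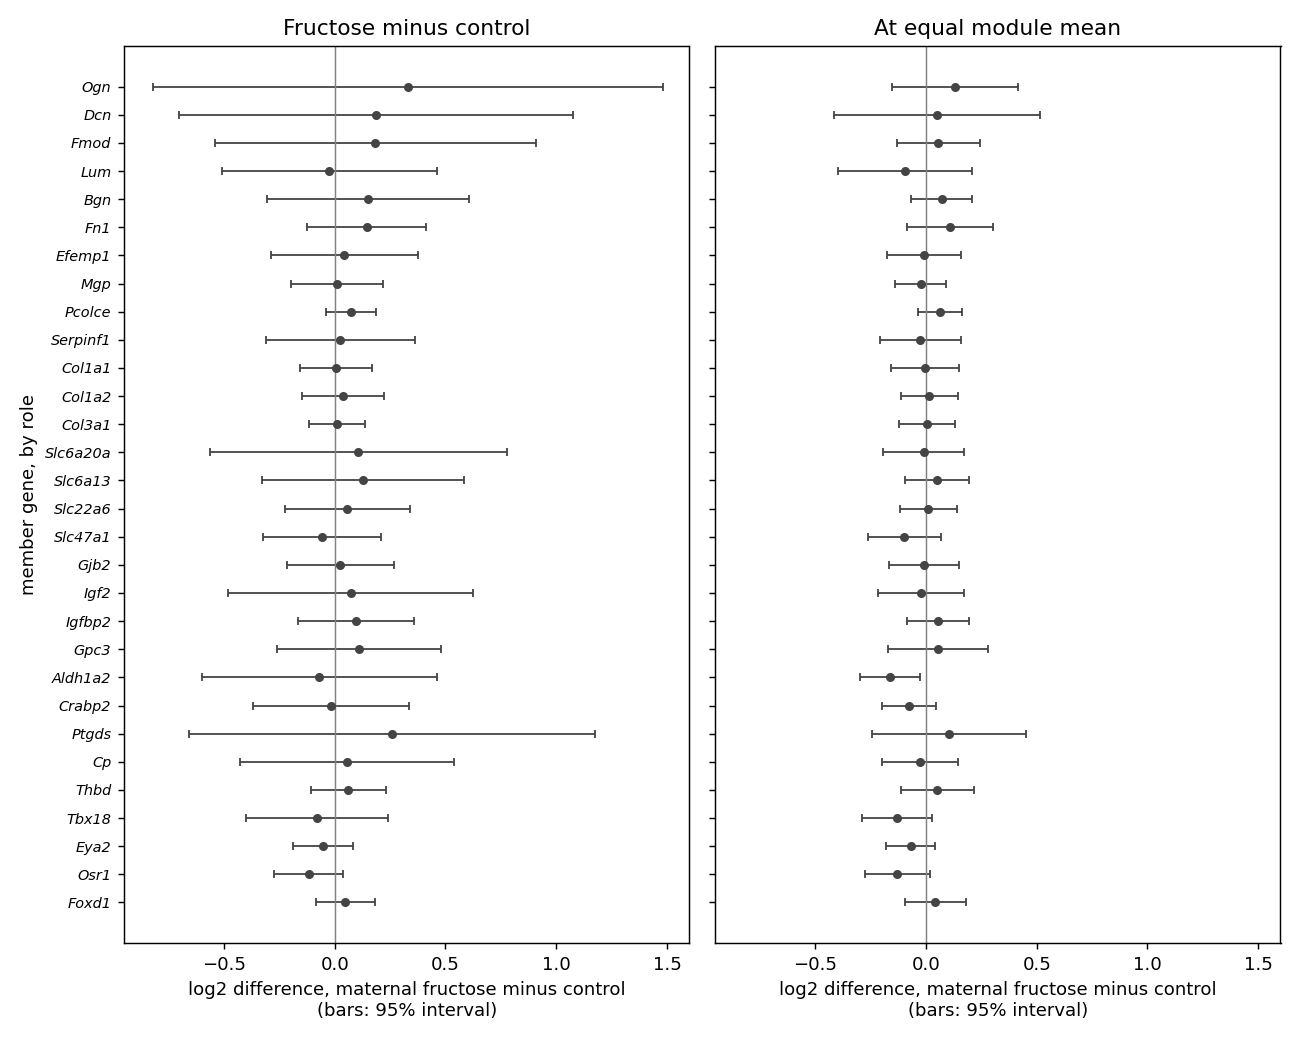
Log2 difference of each member, maternal fructose minus maternal control (point), with its 95% interval (bar), over 6 and 7 arrays, without (left) and with (right) the module mean in the fit. All intervals hold 0 on the left, and on the right all but that of Aldh1a2 at -0.16.

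Genes outside the members were then set against the module mean at equal diet, in the same fit over 15603 probe sets of no member. In limma 79 probe sets (0.506%) had a positive and 1 (0.00641%) a negative slope at an adjusted p of 0.05. At an unadjusted p under 0.05 there were 1808 (11.6%), of which 922 (5.91%) had a positive and 886 (5.68%) a negative slope. The smallest p was that of Slc13a4, a sulfate transporter, with a slope of 2.05 ± 0.11 (SE). Its signal ran from 7.601 to 9.03 with a median of 8.10 in the fructose group, and from 7.35 to 9.34 with a median of 7.65 in the control group. The next were Sfrp1, a secreted Wnt antagonist (1.79 ± 0.12), Gstm2, a glutathione transferase (1.61 ± 0.11), the potassium channel Kcnj13 (2.12 ± 0.16), the scavenger receptor Colec12 (0.91 ± 0.07) and the intermediate filament Vim (1.84 ± 0.15). Then came the leucine-rich repeat protein Prelp (0.99 ± 0.08), Aebp1 (1.06 ± 0.09), Nupr1 (1.75 ± 0.16), the dicarboxylate transporter Slc13a3 (1.09 ± 0.10), Net1 (1.01 ± 0.10) and fibulin 1, Fbln1 (1.00 ± 0.10). The adjusted p of these 12 ran from 2.01e-07 to 6.40e-05 in limma. The negative slope was that of Herc6, a ubiquitin ligase family gene, at -0.65 ± 0.13 (limma adjusted p = 0.0346), and its call was lost in 12 of 25 alternative fits. The count of 80 was 33 (0 negative) without control replicate 8 and 18 (0 negative) without that array and fructose replicate 4. It was 313 (104 negative) without fructose replicate 3 and 123 (11 negative) without fructose replicate 8. With array weights it was 148 (32 negative), and without control replicates 1 and 2 it was 57 (4 negative).

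Further leptomeningeal and fibroblast genes, a list of 143 names of which 108 were measured, held 22 with a positive slope in limma and 0 with a negative one, beside 0.506% and 0.00641% of all probe sets of no member. Without control replicate 8 it was 10, without that array and fructose replicate 4 it was 6, and with the replicate block it was 3. The 22 took in matrix genes, with Omd (osteomodulin) at 1.69 ± 0.19, Aspn (asporin) at 1.03 ± 0.16 and Sparc at 0.61 ± 0.12. They took in transporters, with Slc22a8, the organic anion transporter OAT3, at 0.79 ± 0.11, the adhesion gene Cdh1 (E-cadherin) at 0.63 ± 0.08, and the growth factors Bmp6 (1.18 ± 0.17) and Bmp7 (0.83 ± 0.10). The regulators among them were Zic1 (0.70 ± 0.12), Zic2 (1.17 ± 0.12), Tbx15 (0.58 ± 0.11) and Nr2f2 (1.44 ± 0.25). Nnat also passed, at 1.94 ± 0.40, with a range of 2.87 over all arrays. Whether the signal of these 22 genes came only from the leptomeninges was not tested. Of the 3 brightest genes of the list, Sparc passed, while Slc4a4, a bicarbonate transporter, was at 0.41 ± 0.14 and Apod, a lipid carrier, at 0.25 ± 0.19. The 9 further collagen genes measured (such as Col5a1 at -0.03 ± 0.09 and Col12a1 at 0.38 ± 0.14) gave 0 calls. The median slope of the 108 genes was 0.19. For maternal diet 0 of the 108 passed in limma and 1 had an unadjusted p under 0.05.

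Of the markers of neighbouring cells and tissues, 3 passed the adjusted threshold, and some lists held more positive slopes at an unadjusted p under 0.05. Among choroid plexus markers 1 of 24 passed, Kcnj13, while Ttr was at 0.08 ± 0.37, Folr1 at 0.00 ± 0.11 and Clic6 at 0.10 ± 0.14. Cldn1 was at 0.67 ± 0.14 (limma adjusted p = 0.062). These genes were dim, with means in the fructose group from 6.11 (Clic6) to 7.07 (Kcnj13), below the median of every array. How far this limits their slopes was not tested. The brightest of that list, Enpp2, Car12 and Trpm3, lay at -0.16 ± 0.17, 0.66 ± 0.21 and 0.56 ± 0.18. Among border macrophage markers 1 of 9 did, the mannose receptor Mrc1 at 0.33 ± 0.06, while Cd163 lay at 0.24 ± 0.07, F13a1 at 0.22 ± 0.08 and Clec10a at 0.22 ± 0.10. Of the brightest genes of that list, Lyve1 lay at -0.06 ± 0.08, Pf4 at 0.03 ± 0.09 and Folr2 at 0.09 ± 0.07. The counts were 0 of 21 endothelial, 0 of 15 mural, 0 of 9 blood, 0 of 14 bone, cartilage and tendon, 0 of 10 pituitary, 0 of 12 neuron, 0 of 9 astrocyte and 0 of 9 oligodendrocyte markers. Beside 5.91% of all probe sets of no member, positive slopes at an unadjusted p under 0.05 were held by 4 of 9 border macrophage, 6 of 15 mural, 4 of 9 astrocyte, 4 of 24 choroid plexus, 2 of 21 endothelial, 2 of 9 cerebellum and 1 of 10 pituitary markers. They were held by 0 of the blood, bone, cartilage and tendon, neuron and oligodendrocyte markers, and by 41 of the 108 leptomeningeal and fibroblast genes. Negative slopes at that threshold were held by 2 of the 108 and by 2 of 14 bone, cartilage and tendon markers. They were also held by 1 marker each of the neuron, pituitary, cerebellum and mural lists, beside 5.68% of all probe sets of no member. The 6 mural genes were Tagln (0.51 ± 0.14), Myh11 (0.29 ± 0.09), Pdgfrb (0.27 ± 0.10), Myl9 (0.23 ± 0.10), Des (0.22 ± 0.07) and Acta2 (0.17 ± 0.06). In the same list Anpep, Cspg4 and Notch3 lay at 0.21 ± 0.10, 0.19 ± 0.09 and 0.14 ± 0.08. Mylk and Cnn1 lay at 0.04 ± 0.07 and -0.03 ± 0.10, and Abcc9, Kcnj8 and Higd1b at -0.11 ± 0.11, -0.20 ± 0.09 and -0.22 ± 0.11. Of the glial genes, Slc1a2, the main glutamate transporter of astrocytes, had a slope of -0.02 ± 0.07, Slc1a3 one of 0.15 ± 0.07, S100b one of 0.29 ± 0.10, Gja1 one of 0.32 ± 0.10 and Aqp4 one of 0.41 ± 0.18. Slopes of all 9 astrocyte markers ran from -0.02 to 0.56, so the steepest is not among those named. The myelin genes Mbp, Mobp and Cnp had slopes of 0.17 ± 0.25, 0.22 ± 0.28 and 0.14 ± 0.19. The synaptic genes Snap25, Syt1 and Slc17a7 had slopes of -0.11 ± 0.06, -0.14 ± 0.06 and -0.12 ± 0.11. Of the vessel genes, Slco1c1, Slc2a1 and Slc7a5 of endothelium lay at 0.04 ± 0.12, 0.02 ± 0.11 and 0.06 ± 0.14, and Rgs5 of mural cells at 0.09 ± 0.11. The 2 endothelial markers with a positive slope at an unadjusted p under 0.05 were Kdr (0.26 ± 0.08) and Ocln (0.20 ± 0.08). The globin genes Hbb and Hbb-b1 lay at 0.48 ± 0.34 and 0.59 ± 0.36, and Alas2, which starts haem synthesis in red cells, at 0.18 ± 0.21. Acan, Scx and Col2a1 of cartilage and tendon lay at -0.06 ± 0.11, -0.12 ± 0.10 and -0.14 ± 0.11, and Pomc, Lhb and Pitx1 of the pituitary at -0.05 ± 0.11, -0.04 ± 0.09 and -0.07 ± 0.12. Median slopes were 0.29 for astrocyte, 0.17 for mural, 0.14 for oligodendrocyte, 0.08 for endothelial and -0.10 for neuron markers. The cerebellum list had 1 call of 9, Zic1, which is also in the leptomeningeal list, while Calb1 was at 0.69 ± 0.29 and Cbln3 at -0.02 ± 0.11. Summed as list means, choroid plexus markers ran from 7.003 to 7.19 in the fructose group and from 6.88 to 7.16 in the control group. Endothelial markers ran from 8.32 to 8.56 and from 8.27 to 8.50 in that order, and border macrophage markers from 7.02 to 7.21 and from 7.03 to 7.19. How far cells of these kinds take part in the members' spread was not tested.

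**Figure D5:**
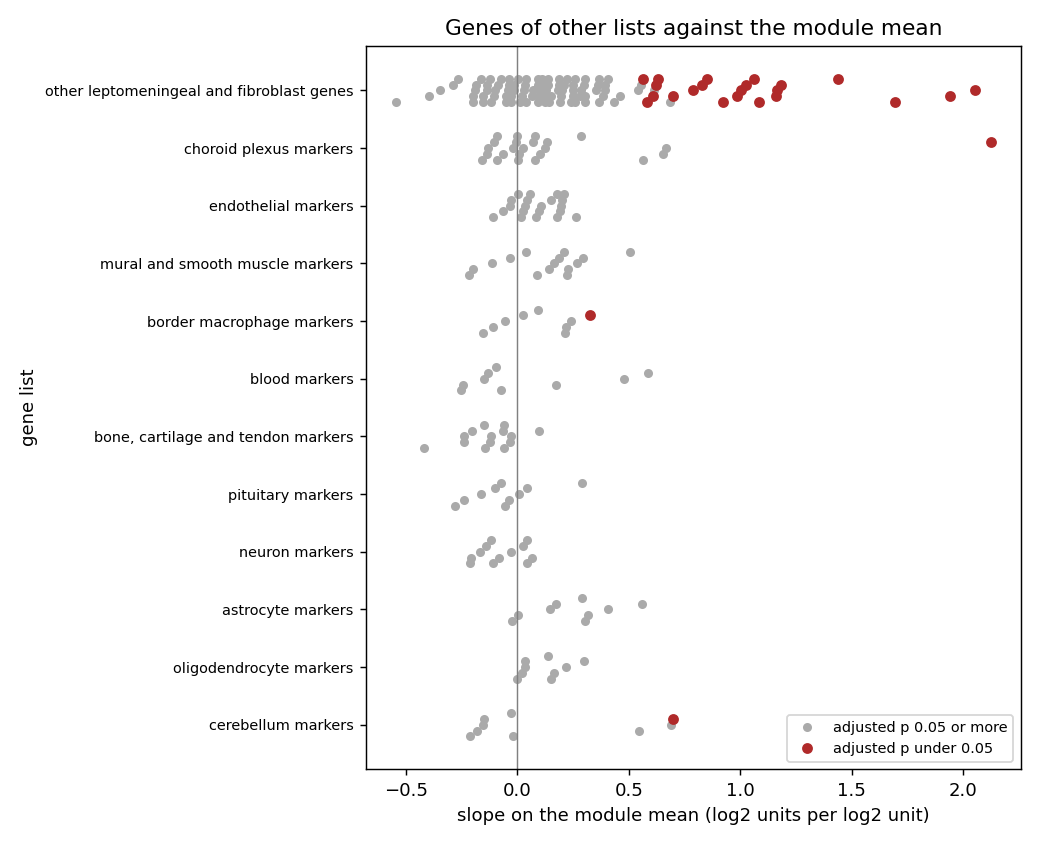
Slope of each gene of the other lists on the module mean at equal diet (points; log2 units per log2 unit), by list, over 13 arrays. Red points passed an adjusted p of 0.05 in limma: 22 of 108 further leptomeningeal and fibroblast genes, and 1 each in the choroid plexus, border macrophage and cerebellum lists.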

How the data were processed

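The table deposited by the authors holds log2 signals of 29214 probe sets on 13 arrays. RMA (background correction, quantile normalization and summary over probes) and R 3.0.1 stand in the submitters' processing notes. Labelled RNA was made from 100 ng of total RNA, per the labels' protocols. For scanner settings and the annotation build: not given in the sources used here. Platform annotation assigned 1 symbol to 15310 probe sets, several to 323 and none to 13581. Probe sets with several symbols name no gene here, and all 30 measured members' Entrez identifiers were in a current rat gene table under the same symbol. Groups and replicate numbers came from the titles.

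The 15633 probe sets with a gene were fitted with limma 3.58.1 in R 4.3.3 (lmFit, eBayes), fructose minus control, and dim probe sets were kept. A further fit added the module mean. Tests were 2-sided, with Benjamini-Hochberg adjustment over all probe sets tested (0.05). Slopes on the module mean were adjusted over the 15603 probe sets of no member. Named outside the members were up to 12 genes with the smallest p among positive slopes, up to 6 among negative ones, and from each list those with the highest signal. Others were named after their values were seen. The scripts were tested on simulated data. The number of arrays limits the precision. The members, lists and rules were chosen with earlier results of these data known, so they are no independent support.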

Additional observations from a re-analysis of the deposited data

Results flagged for a closer look

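A sample far from the others of its group was looked for in 62 sets of arrays (30 members and the module mean in both groups). It was found in 8. Chance gives about 1 in 20 for a single set, but the members moved together and the module mean is built from them. The sets are therefore not independent, and the count of 8 cannot be judged against that rate. In fructose replicate 4, Dcn was at 10.99 with the next fructose array at 8.86, Igf2 at 8.89 with the next at 7.99, Efemp1 at 8.94 with the next at 8.41, and Gpc3 at 8.06 with the next at 7.46. In fructose replicate 8, Thbd was at 6.97 with the next fructose array at 6.76, and Foxd1 at 7.87 with the next at 7.66. In control replicate 8, Slc47a1 was at 7.11 with the next control array at 6.45, and Eya2 at 7.22 with the next at 6.95. These arrays had module means of 8.27 (fructose replicate 4), 8.01 (fructose replicate 8) and 8.31 (control replicate 8), and the part of that in each gap was not tested.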

How the results depend on the processing

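No probe set passed for maternal diet, with or without the module mean, in any of the alternative fits. The difference of the module mean stayed within the SD of a group, from -0.04 (without fructose replicate 4) to 0.16 (without control replicate 8) with 1 array left out, and was 0.14 over the members with signals above the members' median. Differences kept their sign in every alternative that gave the gene a value for 8 of 30 members, and for 15 at equal module mean. The fit without the 30% dimmest probe sets gave values for 23 members. The count of slopes, 80, ran from 33 to 313 with 1 array left out. It was 148 with array weights and 18 without fructose replicate 4 and control replicate 8, an alternative chosen after seeing the data. With the replicate block it was 7, all among the 80, with 3 in place of 22 further leptomeningeal and fibroblast genes, and the module mean differed by 0.01. The titles share 6 replicate numbers between groups. Deviations of same-numbered arrays correlated above 0.1 in 1 of 6 pairs, and 0 of 6 fructose arrays matched best with their own number. These values showed no pairing by number, but 6 pairs are too few to exclude it. Whether the numbers pair samples is therefore not known. The slope calls of 12 of the 13 named genes were lost in at most 2 of the alternatives that gave them a value, and that of Herc6 in 12. The second probe set of a member could not be tried, since each has 1. The table has no measure of signal over background, so how it limits dim members is unknown.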
